A study of Rattus norvegicus with 10 samples.

Results

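The genes described here build 2 kinds of folded membrane in heart cells, the caveolae and the transverse tubules (T-tubules). They were Cav1, Cav2, Cav3, Cavin1, Cavin4, Bin1, Dysf and Mtm1, chosen by function with earlier results of these data known. The members were found by symbol, and 8 of the 18025 genes listed by the authors matched. Hearts were taken at embryonic day 19.5 from fetuses of wild-type Sprague-Dawley rats. The dams, which were 3 months old at mating, had been injected daily on 3 days after mating with streptozotocin, a compound toxic to insulin-producing beta cells, to give the hyperglycemia (HG) group, or with citrate buffer alone to give the control (CON) group. Messenger RNA was sequenced in 5 CON and 5 HG libraries. All fetuses carried the wild-type genotype, and the labels name heart tissue as the source, whereas 1 figure legend of the study speaks of isolated cardiomyocytes. The labels do not say which dam or litter each heart came from, so p-values measure only the spread between these libraries, and littermates cannot be told from hearts of separate litters.

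Caveolae are flask-shaped pits of the plasma membrane. Caveolins insert into the inner leaflet, cavins form a coat around them, and a ring of further proteins holds the neck. T-tubules carry the action potential from the surface into the heart muscle cell, where L-type calcium channels face the ryanodine receptors of the sarcoplasmic reticulum. Caveolin-3 has long been linked to the first steps of T-tubule growth in muscle, and in rodent ventricles most of the T-tubule network is laid down after birth, so hearts of this age precede the mature network.

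Values are FPKM, that is, read numbers divided by gene length and library size, and being set per length they allow levels to be compared between genes. Reads on genes, recovered from the steps between FPKM values, numbered 17644001 to 18243928 in the CON libraries and 16676574 to 19114293 in the HG libraries. CON replicate 3 stood apart in its summed level of 6 liver genes, 76.4 FPKM against 3.12 to 7.88 in the other CON libraries. Differences between the groups were tested with limma on log2(FPKM + 0.1) over 14542 genes, which understates the change of genes with low FPKM, and a gene was called at a Benjamini-Hochberg adjusted p under 0.05. Of all genes tested, 40.1% were called, 11.8% lower and 28.4% higher in HG.

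All 8 members passed the filter on low values. In HG, 5 of them fell (Cav1, Cav2, Cav3, Cavin4 and Mtm1), Bin1 rose, and Cavin1 and Dysf did not pass the test. The same 6 were called, in the same directions, when CON replicate 3 was left out. That is 75% of the members called, against the 40.1% of all genes. The median log2 fold change was -0.31 over the members and 0.09 over all genes tested. Since the members were chosen with earlier results of these data known, neither difference from all genes counts as support. None of the 8 changed more than 2-fold, which 1.94% of all genes tested did while also being called. For 4 members (Cav1, Cav2, Cav3 and Mtm1) every HG library lay below every CON library, as it did for 8.12% of all genes tested. The share of calls that were higher depended on how libraries were scaled, since 70.7% of all called genes were higher with FPKM as deposited, 53.0% after quantile normalization and 47.1% with median-of-ratios factors, which divide each library by its median ratio to a common reference and moved the median of all genes to 0.01. Among the members, 5 were lower and 1 higher as deposited, and 6 were lower and none higher with both other scalings, where Bin1 was no longer called and Dysf was called lower. Of all genes tested, 17.5% were lower and 15.6% higher with median-of-ratios factors, and 15.9% lower and 18.0% higher after quantile normalization.

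**Figure D1:**
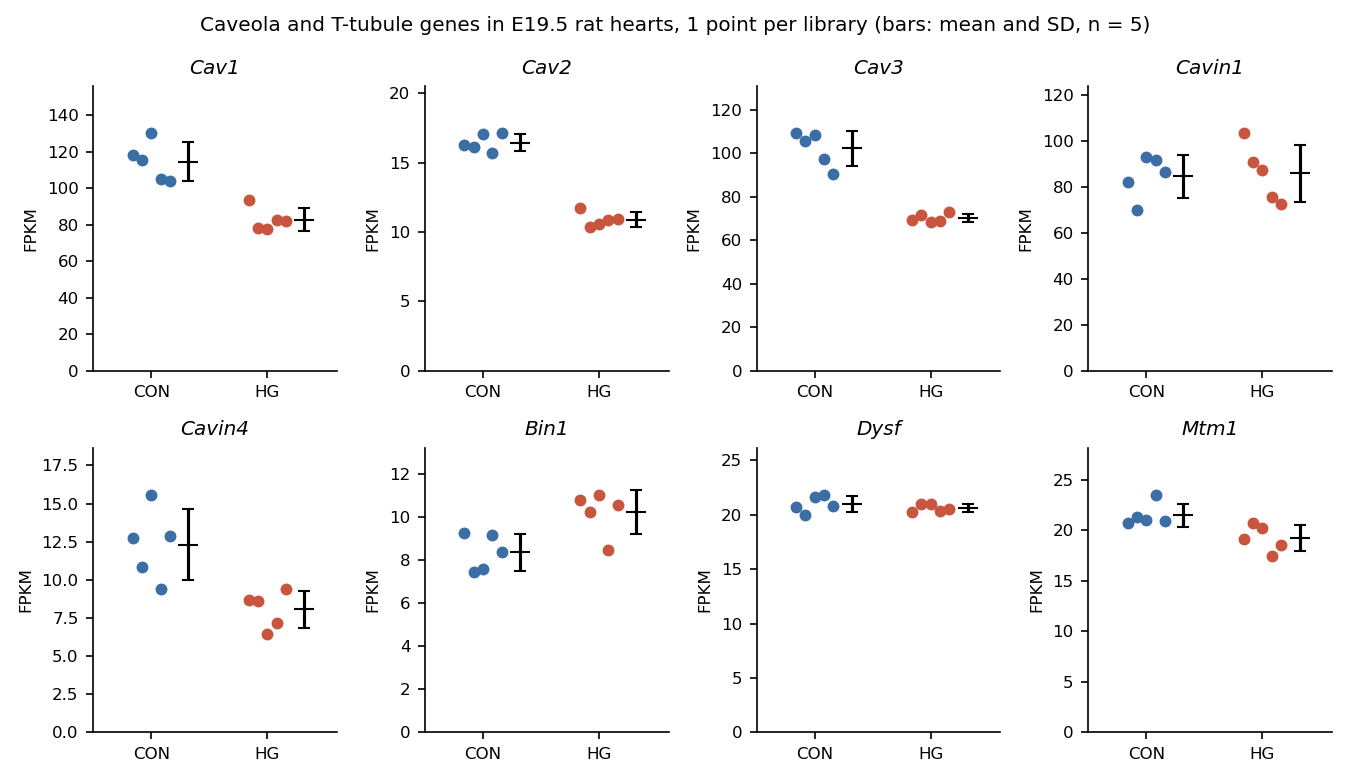
FPKM of the 8 genes (vertical axes, each from 0) in the CON and HG libraries, 1 point per library, with the mean and SD (n = 5) as bars. Cav1, Cav2 and Cav3 show no overlap between the groups, Mtm1 is parted only narrowly, Cavin1 and Dysf share most of their range, and Bin1 has a higher mean in HG.

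The caveolins are the membrane-bound core of caveolae. Cav1 (NCBI Gene 25404) encodes caveolin-1, the main caveolin of endothelial cells, fibroblasts and smooth muscle. It measured 117.9, 115.5, 129.9, 105.1 and 103.9 FPKM in CON replicates 1 to 5 and 93.3, 78.0, 77.6, 82.7 and 81.9 FPKM in HG replicates 1 to 5. The highest HG library lay below the lowest CON library. The mean fell by 27.8%, from 114 ± 10.6 to 82.7 ± 6.38 FPKM (SD, n = 5 each). The log2 fold change was -0.47 (standard error 0.0664, 95% confidence interval -0.61 to -0.32, limma adjusted p = 0.000203).

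Cav2 (363425) encodes caveolin-2, which is built into caveolae together with caveolin-1. Its level was 16.2, 16.1, 17.1, 15.7 and 17.1 FPKM in the CON libraries and 11.7, 10.4, 10.6, 10.9 and 11.0 FPKM in the HG libraries. The gap between the groups exceeded the range within either of them. The mean fell by 33.7%, from 16.4 ± 0.627 to 10.9 ± 0.532 FPKM (SD, n = 5 each), and the log2 fold change was -0.59 (standard error 0.0466, interval -0.69 to -0.49, limma adjusted p = 3.36e-06), the smallest adjusted p of the 8 genes.

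Cav3 (29161) encodes caveolin-3, the caveolin of heart and skeletal muscle cells. The CON libraries held 109.0, 105.4, 108.5, 97.4 and 90.7 FPKM and the HG libraries 69.5, 71.7, 68.6, 68.7 and 73.0 FPKM. The HG libraries lay close together, below all CON libraries. The mean fell by 31.2%, from 102 ± 7.96 to 70.3 ± 1.95 FPKM (SD, n = 5 each; log2 fold change -0.54, standard error 0.0507, interval -0.65 to -0.43, limma adjusted p = 1.15e-05). The 3 caveolins summed to 233 ± 18.0 FPKM in CON and 164 ± 6.84 FPKM in HG. Their proportions stayed near each other between the groups, with Cav1 at 49.1% of the caveolin FPKM in CON and 50.4% in HG, Cav3 at 43.9% and 42.9%, and Cav2 at 7.08% and 6.65%.

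Cavins are soluble proteins that coat the caveolar bulb. Cavin4 (313225), formerly named Murc, encodes the muscle-restricted cavin. It was found at 12.8, 10.9, 15.6, 9.38 and 12.9 FPKM in CON and at 8.65, 8.59, 6.46, 7.17 and 9.41 FPKM in HG. The groups overlapped by 1 library, with HG replicate 5 just above CON replicate 4. The mean fell by 34.4%, from 12.3 ± 2.33 to 8.06 ± 1.21 FPKM (SD, n = 5 each), and the log2 fold change was -0.60 (standard error 0.132, interval -0.88 to -0.31, limma adjusted p = 0.00362). It was read least deeply of the 8, with 122 to 299 reads per library, and varied most within groups.

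Cavin1 (287710) encodes the cavin without which caveolae do not form, and it is present in the caveolae of all tissues. Its levels were 82.4, 69.9, 93.1, 91.9 and 86.6 FPKM in CON and 103.3, 91.0, 87.3, 75.6 and 72.5 FPKM in HG, and the ranges overlapped almost fully. The means were 84.7 ± 9.36 and 85.9 ± 12.4 FPKM (SD, n = 5 each), and the log2 fold change was 0.02 (standard error 0.0992, limma adjusted p = 0.916), which was -0.08 with median-of-ratios factors. The interval of -0.20 to 0.23 holds the possibility of a modest change either way, but not one of the size of Cav1 or Cav3. Per library, Cavin1 amounted to 0.605 to 0.874 of the Cav1 level in CON and to 0.886 to 1.17 of it in HG, so that this ratio did not overlap between the groups.

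**Figure D2:**
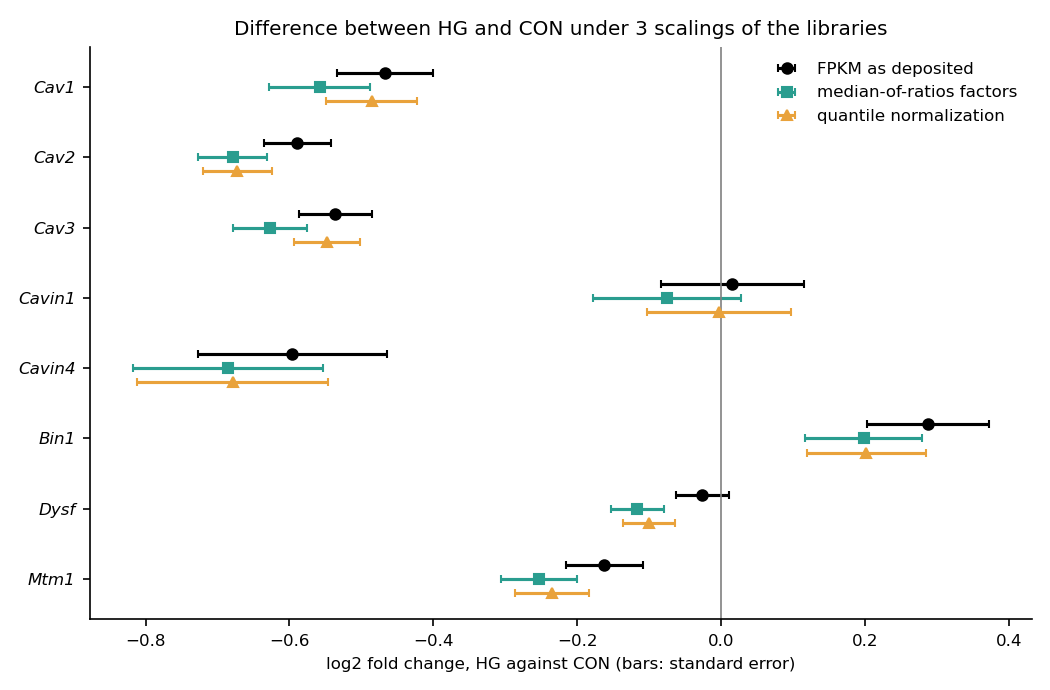
Log2 fold change of HG against CON (horizontal axis) of the 8 genes under 3 scalings (FPKM as deposited, median-of-ratios factors, quantile normalization), with the standard error as bars. The caveolins, Cavin4 and Mtm1 stay below 0 with each scaling, Cavin1 lies on both sides of 0, and Bin1 stays above 0 but closer to it with both other scalings.

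The stretches before the start sites of the 4 members that were called lower under every setting tried are shown, since these genes changed by similar amounts. They are the 250 bases upstream of the RefSeq start site in build GRCr8, 5′ to 3′, whereas the deposited values list build mRatBN7.2. All 8 members were matched to this table by gene identifier. Cav1 has 2 start sites there, and the first listed is shown. Capitals mark, on either strand, the letters TATAAA of a TATA box, the letters GGGCGG of a GC box and the letters CATTCC of an MCAT motif.
Cav1, chr4:46606288-46606537, + strand: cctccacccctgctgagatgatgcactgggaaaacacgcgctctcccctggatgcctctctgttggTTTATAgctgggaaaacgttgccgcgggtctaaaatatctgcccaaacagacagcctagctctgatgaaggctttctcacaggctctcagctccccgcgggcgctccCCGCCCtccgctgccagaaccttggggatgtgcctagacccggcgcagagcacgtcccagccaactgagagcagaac
Cav2, chr4:46582431-46582680, + strand: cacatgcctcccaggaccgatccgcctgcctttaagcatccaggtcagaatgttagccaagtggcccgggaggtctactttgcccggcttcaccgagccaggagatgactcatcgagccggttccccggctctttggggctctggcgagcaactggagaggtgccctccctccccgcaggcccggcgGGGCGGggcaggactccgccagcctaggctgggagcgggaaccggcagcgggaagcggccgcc
Cav3, chr4:147137743-147137992, + strand: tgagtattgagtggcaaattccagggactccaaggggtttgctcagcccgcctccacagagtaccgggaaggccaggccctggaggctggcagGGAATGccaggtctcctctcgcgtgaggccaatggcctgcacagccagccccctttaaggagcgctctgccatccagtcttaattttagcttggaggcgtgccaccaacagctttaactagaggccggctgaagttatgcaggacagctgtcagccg
Cavin4, chr5:67792182-67792431, + strand: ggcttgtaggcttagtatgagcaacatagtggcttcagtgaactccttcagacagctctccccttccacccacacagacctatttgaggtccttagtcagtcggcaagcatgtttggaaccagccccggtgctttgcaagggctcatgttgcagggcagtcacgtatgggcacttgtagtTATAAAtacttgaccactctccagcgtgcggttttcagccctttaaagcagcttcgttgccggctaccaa
Each of the 3 motifs was searched on both strands in 33469 windows of the same length. TATAAA was found once before Cav1 and once before Cavin4, and in 12.9% of all windows. GGGCGG was found once before Cav1 and once before Cav2, and in 30.5% of all windows. CATTCC was found once before Cav3 and in 12.1% of all windows. No one of these motifs was shared by all 4. The E-box CANNTG, which is not capitalized, stood in all 4 windows (3 times before Cav2 and once before each of the others) and in 65.5% of all windows. In the corresponding windows of the other 4 members, GGGCGG was found once for Cavin1, 5 times for Bin1, 3 times for Dysf and 2 times for Mtm1, an E-box once for Mtm1 and in no other, and TATAAA and CATTCC in none. The CArG box, found in 1.5% of all windows, did not occur in the 8 windows. A match is a string of letters anywhere in the window, its distance from the start site was not weighed, and binding was not measured.

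Bin1, Mtm1 and Dysf act at the T-tubule. Bin1 (117028) encodes amphiphysin-2, which bends membrane into tubes and brings L-type calcium channels to the T-tubule. It was at 9.27, 7.44, 7.58, 9.16 and 8.37 FPKM in CON and at 10.8, 10.3, 11.0, 8.50 and 10.6 FPKM in HG. HG replicate 4 lay within the CON range and the other 4 HG libraries above it. The mean rose by 22.4%, from 8.36 ± 0.856 to 10.2 ± 1.01 FPKM (SD, n = 5 each; log2 fold change 0.29, standard error 0.0847, interval 0.10 to 0.47, limma adjusted p = 0.0172). This call was lost with median-of-ratios factors (log2 fold change 0.20, limma adjusted p = 0.0822) and after quantile normalization (0.20, limma adjusted p = 0.0783). The values are for the whole gene, so the muscle isoforms of Bin1 were not told apart.

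Mtm1 (288762) encodes myotubularin, a phosphatase of phosphatidylinositol 3-phosphate that interacts with amphiphysin-2 and is mutated in X-linked myotubular myopathy. The CON libraries were at 20.7, 21.3, 21.0, 23.5 and 20.9 FPKM and the HG libraries at 19.1, 20.7, 20.2, 17.5 and 18.6 FPKM. The highest HG library fell only just short of the lowest CON library. The mean fell by 10.6%, from 21.5 ± 1.14 to 19.2 ± 1.28 FPKM (SD, n = 5 each; log2 fold change -0.16, standard error 0.0535, interval -0.28 to -0.05, limma adjusted p = 0.0290). The call was lost without CON replicate 4 (log2 fold change -0.13, limma adjusted p = 0.0709) and without HG replicate 1, 4 or 5 (limma adjusted p = 0.0526, 0.0649 and 0.0593).

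Dysf (312492) encodes dysferlin, a ferlin of the muscle membrane and T-tubules that takes part in membrane repair. It varied little, at 20.7, 20.0, 21.6, 21.8 and 20.8 FPKM in CON and 20.2, 21.0, 21.0, 20.3 and 20.5 FPKM in HG, and all HG libraries lay within the CON range. The means were 21.0 ± 0.727 and 20.6 ± 0.346 FPKM (SD, n = 5 each; log2 fold change -0.03, standard error 0.0366, interval -0.11 to 0.05, limma adjusted p = 0.609). With median-of-ratios factors it was called lower (log2 fold change -0.12, limma adjusted p = 0.0310) and after quantile normalization (-0.10, limma adjusted p = 0.0484).

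By level, the CON hearts held Cav1, Cav3 and Cavin1 far above the rest, then Mtm1 and Dysf, Cav2, Cavin4 and, lowest, Bin1. Within this order the ranges of Cav1 and Cav3, of Cav3 and Cavin1, and of Mtm1 and Dysf overlapped, and those of the other neighbours did not. In the HG hearts Cavin1 stood level with Cav1, and Bin1 had passed Cavin4, with overlapping ranges for Cavin1 and Cav1, Dysf and Mtm1, Cav2 and Bin1, and Bin1 and Cavin4. Measured against the muscle caveolin, Bin1 was at 8.24 ± 1.16 FPKM per 100 FPKM of Cav3 in CON and at 14.6 ± 1.44 in HG (SD, n = 5 each).

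The heart holds several cell types, and in bulk tissue fewer cells of a type and less RNA per cell cannot be told apart. Heart muscle markers were abundant in every library, and none of the 12 cardiomyocyte or 12 endothelial markers was missing from the table. Every gene in the table was above 0 in at least 1 library, and 3 of the 5 lung epithelium markers were listed. The 12 cardiomyocyte markers summed to 23639 to 24981 FPKM in CON and 19692 to 23023 FPKM in HG, a fall of 14.1% in the mean (two-sided exact permutation test, p = 0.00794, the smallest that 5 against 5 allows; adjusted p = 0.0218 over 11 lists). Of these, 10 were lower, including Myh6 and Tnni3, Nppa was higher, and Myl7 was not called. Cav3 amounted to 37.4 to 44.3 FPKM per 10000 FPKM of these markers in CON and 29.9 to 35.3 in HG, without overlap between the groups. Cavin4 amounted to 3.97 to 6.23 in CON and 3.12 to 4.53 in HG, which overlapped. The marker sums include Nppa, whose mean rose from 1733 to 2855 FPKM. This lifts the HG sums and enlarges the fall of the Cav3 and Cavin4 ratios. Ratios without Nppa were not tested. Among the single markers, Myh6 fell by 51.1%, Tnni3 by 30.9% and Pln by 28.1%, beside 31.2% for Cav3. The other markers called lower fell by less.

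Endothelial cells are rich in Cav1 and Cav2. The 12 endothelial markers summed to 324 to 355 FPKM in CON and 332 to 369 FPKM in HG (exact permutation test, p = 0.183; adjusted p = 0.201), with 3 of 12 higher (Tie1, Emcn and Esam) and none lower, and the sign of the summed difference turned with median-of-ratios factors. Cav1 measured 30.8 to 36.6 FPKM per 100 FPKM of these markers in CON and 21.2 to 26.1 in HG, and Cav2 4.59 to 5.11 and 2.81 to 3.29. Neither ratio overlapped between the groups. Marker sums of other cell types with Cav1 moved in both directions. The 8 fibroblast markers went from 1724 to 2010 FPKM in CON to 1556 to 1785 FPKM in HG (exact permutation p = 0.0159; adjusted p = 0.0349), with 4 of 8 lower, among them Col3a1, and 2 higher (Tcf21 and Pdgfra). The 9 smooth muscle and pericyte markers went from 811 to 931 FPKM to 1014 to 1279 FPKM (exact permutation p = 0.00794, adjusted p = 0.0218), a sum mostly of Acta2. Of them 3 were higher and 2 lower, Rgs5 and Cspg4 (log2 fold changes -0.31 and -0.29). Among the 4 not called, Myh11, Pdgfrb and Notch3 had 0.24, 0.13 and 0.16, and Kcnj8 had -0.25. Red cell and liver markers also fell (adjusted p = 0.0218 each), while macrophage, skeletal muscle, epicardial, neuronal and glial, and lung epithelial markers did not pass the exact permutation test (adjusted p between 0.102 and 0.222). The liver call was lost when any 1 HG library was left out (exact permutation p between 0.190 and 0.238). The part of the mix of cells in the differences of the members was not tested.

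**Figure D3:**
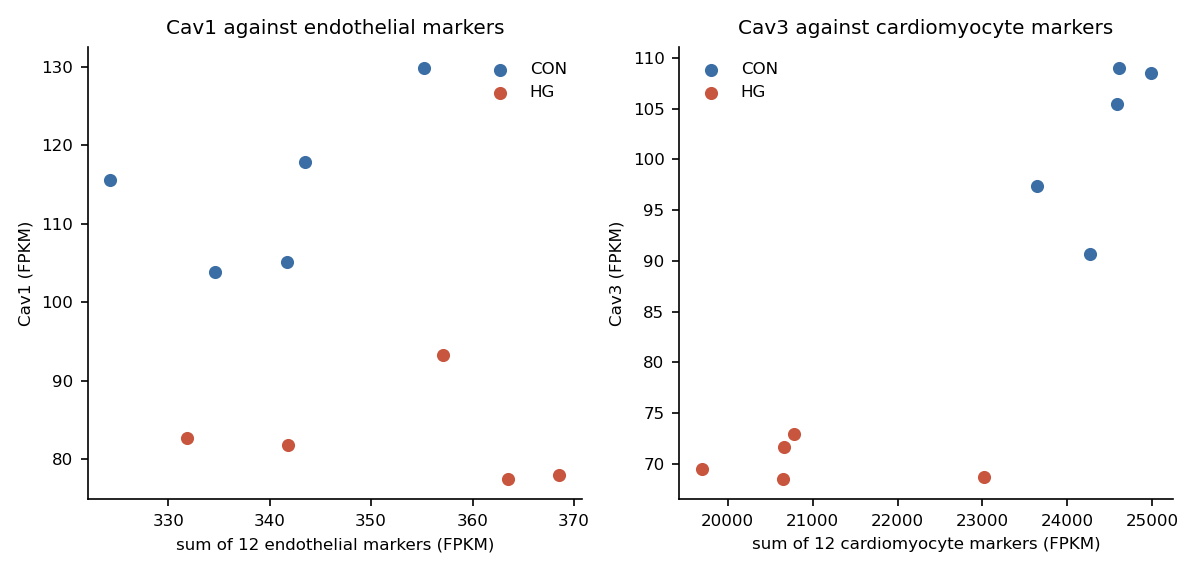
Cav1 against the sum of 12 endothelial markers (left) and Cav3 against the sum of 12 cardiomyocyte markers (right), all in FPKM, 1 point per library, on axes that do not start at 0. Cav1 parts the groups although the endothelial sums overlap, while for Cav3 both axes part them.

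The wider machinery was followed in 6 lists holding 75 genes, of which 70 were tested, 13 rose and 19 fell. Leaving out the 8 members, 12 of 62 rose and 14 fell, which is 41.9% called against 40.1% of all genes. With median-of-ratios factors 3 of these 62 were higher and 24 lower, against 15.6% and 17.5% of all genes. With quantile normalization 4 were higher and 18 lower, against 18.0% and 15.9% of all genes. The 41.9% and the higher counts, as deposited and with either other scaling, include Mtmr7, which passed the filter only through its HG level. With FPKM as deposited the lists differed in direction. With median-of-ratios factors every list but that of amphiphysins and dynamins held more genes called lower than higher. In the caveolar coat, 5 of 7 fell (71.4%, against 11.8% of all genes) and none rose, with a median log2 fold change of -0.47. This count includes the members Cav1, Cav2, Cav3 and Cavin4, and the median is the value of Cav1. It therefore largely repeats the result of the members. With median-of-ratios factors 6 of the 7 were lower and none higher, against 17.5% and 15.6% of all genes. Besides the members, Cavin3 fell from 176 ± 14.6 to 152 ± 11.4 FPKM (SD, n = 5 each; -0.21, limma adjusted p = 0.0221), a call lost without CON replicate 1 or 3 (limma adjusted p = 0.0556 and 0.0559). Cavin2, the cavin that shapes caveolae in endothelium, was at 95.1 ± 4.00 and 93.2 ± 4.89 FPKM (-0.03, limma adjusted p = 0.624).

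At the caveolar neck, 4 of 7 genes fell (57.1%, against 11.8% of all genes) and none rose, with a median of -0.19. With median-of-ratios factors 5 were lower and none higher, where 17.5% of all genes were lower and 15.6% higher. Ehd2, the ATPase that forms a ring around the neck and holds caveolae at the surface, fell from 66.6 ± 2.48 to 50.8 ± 3.44 FPKM (SD, n = 5 each; log2 fold change -0.39, limma adjusted p = 7.70e-05). Ehd1, a related ATPase, had -0.34, Pacsin2, an F-BAR protein of the neck, -0.29, and Pacsin3 -0.19 (limma adjusted p = 7.58e-05, 0.000197 and 0.0240). The call of Pacsin3 was lost without CON replicate 2 or 3 or HG replicate 5 (limma adjusted p = 0.0571, 0.0614 and 0.0558). Ehd4, the most abundant of the list, was at 116 ± 1.67 and 114 ± 5.55 FPKM and did not pass the test (limma adjusted p = 0.533), nor did Ehd3 and Pacsin1.

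Among 17 genes of the T-tubule and dyad, 6 fell and 2 rose (Cacnb2 and the member Bin1). That is 47.1% called against 40.1% of all genes, with a median of -0.08. With median-of-ratios factors 8 were lower and none higher, where 17.5% of all genes were lower and 15.6% higher. Trim72, which encodes the membrane-sealing protein MG53, fell from 19.2 ± 4.10 to 11.2 ± 0.790 FPKM (SD, n = 5 each; log2 fold change -0.75, limma adjusted p = 0.000353), and Cmya5, a large protein that anchors the dyad, from 4.24 ± 0.666 to 2.61 ± 0.346 FPKM (-0.67, limma adjusted p = 0.000654). The junctophilins, which tie the T-tubule to the sarcoplasmic reticulum, had -0.29 (Jph1) and -0.18 (Jph2), the calcium release channel Ryr2 -0.62, and the pore subunit of the L-type channel, Cacna1c, -0.27. The call of Cacna1c was lost without CON replicate 4 or 5 or HG replicate 2 or 4 (limma adjusted p between 0.0608 and 0.0633). Cacnb2, the beta subunit of that channel, rose with 0.19 (limma adjusted p = 0.00685) but was not called with median-of-ratios factors (0.10, limma adjusted p = 0.119). The other 9 genes, among them Tcap, Speg and the sodium-calcium exchanger Slc8a1, did not pass the test.

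Bin1 belongs to the amphiphysins, which work with dynamins and endophilins in pinching off membrane. Of 11 such genes 4 rose, the member Bin1 among them, and none fell. That is 36.4% called against 40.1% of all genes, with a median of 0.18. With median-of-ratios factors 2 were higher and 1 lower, against 15.6% and 17.5% of all genes. Sh3gl3, an endophilin, rose from 1.23 ± 0.164 to 2.35 ± 0.246 FPKM (SD, n = 5 each; log2 fold change 0.89, limma adjusted p = 8.19e-05), and Dnm1 from 5.17 ± 0.645 to 7.24 ± 1.12 FPKM (0.47, limma adjusted p = 0.00597). Dnm2, the widely expressed dynamin that is mutated in centronuclear myopathy, was at 32.3 ± 1.83 and 31.0 ± 1.39 FPKM and did not pass the test (-0.06, limma adjusted p = 0.383).

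Dysf stands among the ferlins and membrane repair genes, of which 11 of 15 were tested. Of these, 3 fell and 1 rose, 36.4% called against 40.1% of all genes, with a median of -0.03. With median-of-ratios factors 6 were lower and none higher, where 17.5% of all genes were lower and 15.6% higher. Otof, Fer1l4, Fer1l5 and Fer1l6 fell below the filter. Myof, which encodes the related ferlin myoferlin, rose with 0.21 (limma adjusted p = 0.0296), a call kept in 13 of 21 alternatives. Beside Trim72, the annexins Anxa4 and Anxa5, which bind membranes in the presence of calcium, had log2 fold changes of -0.73 and -0.34 (limma adjusted p = 2.20e-05 and 0.000380).

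Mtm1 belongs to the myotubularins, which were listed with the kinases and other enzymes of phosphatidylinositol 3-phosphate. Of 19 tested genes 7 rose and 2 fell (Mtmr4 and the member Mtm1). That is 47.4% called against 40.1% of all genes, with a median of 0.14. The split turned to 1 higher, which was Mtmr7, and 5 lower with either of the other scalings. Of all genes, 15.6% were higher and 17.5% lower with median-of-ratios factors, and 18.0% higher and 15.9% lower after quantile normalization. Mtmr4 fell from 15.3 ± 0.953 to 11.5 ± 1.06 FPKM (SD, n = 5 each; log2 fold change -0.41, limma adjusted p = 0.000457). Mtmr7 was scarce, at 0.0761 ± 0.0166 FPKM among CON and 0.277 ± 0.0484 FPKM among HG libraries (SD, n = 5 each). It passed the filter only through its HG level. Its call, which is 1 of the 7 and counted in the 47.4%, is therefore not used as support. Its log2 fold change of 1.09 was 0.25 with a pseudocount of 1. Pik3c3, the kinase that makes most of this lipid in the cell, had 0.20 (limma adjusted p = 0.0214), and its call was lost with median-of-ratios factors (0.11, limma adjusted p = 0.163), with quantile normalization (0.10, limma adjusted p = 0.203) and without CON replicate 1 (limma adjusted p = 0.0528).

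**Figure D4:**
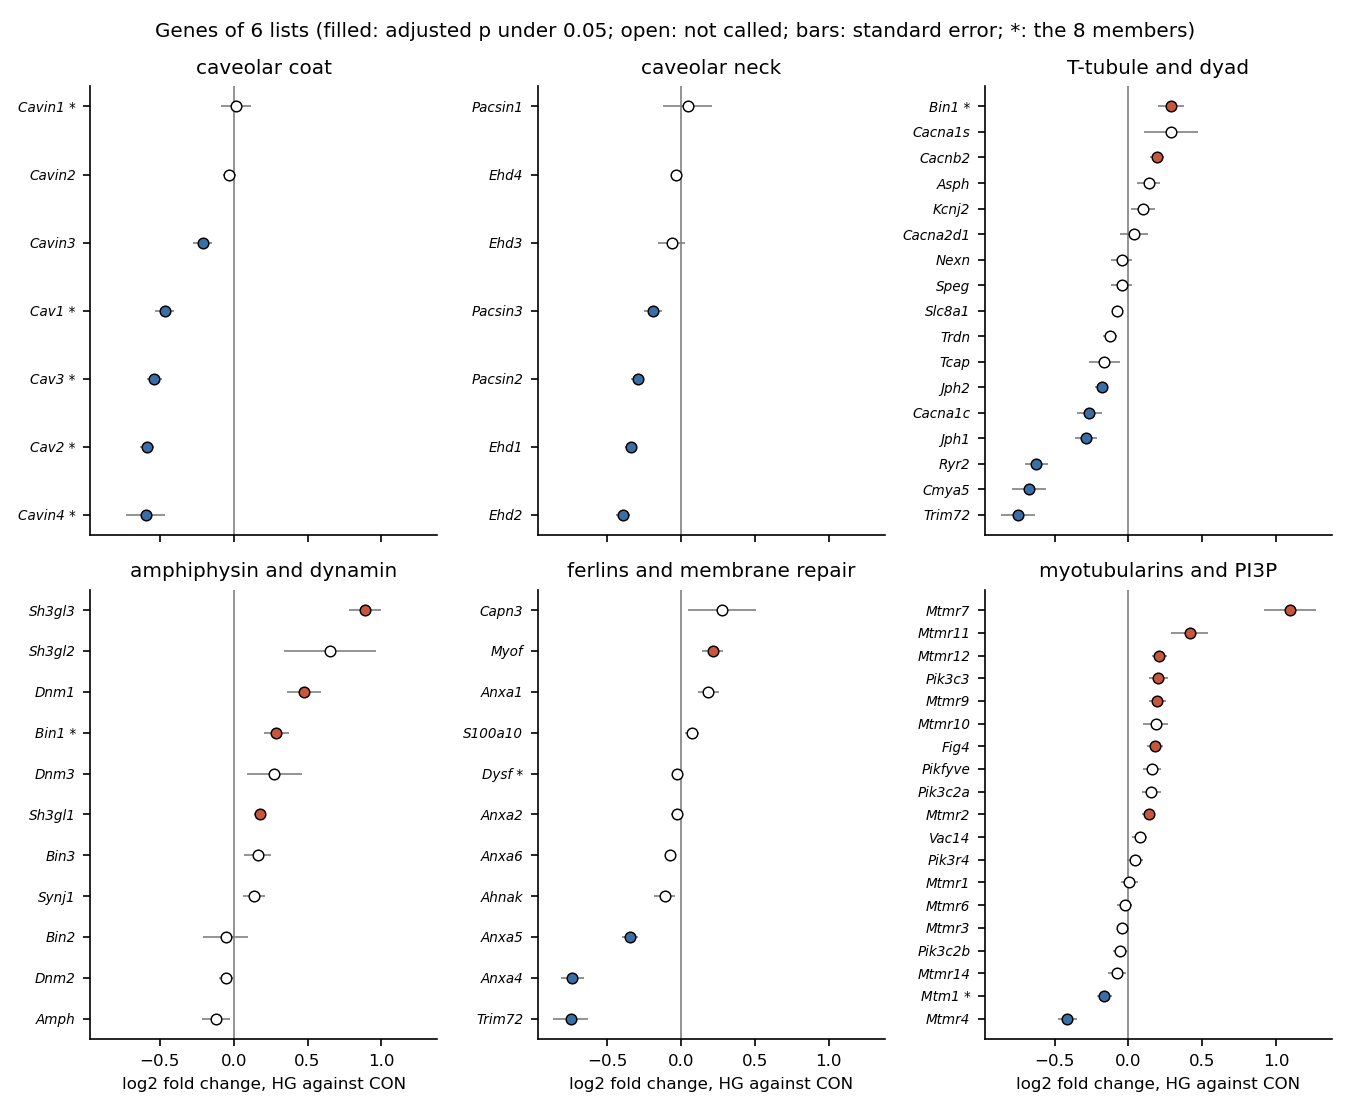
Log2 fold change of HG against CON (horizontal axes) of the tested genes in each of 6 lists, 1 row per gene, with the standard error as bars. Filled points passed the test, blue lower and red higher in HG, and open points did not; stars mark the 8 members. With FPKM as deposited, the coat and neck lists hold no gene called higher, and the amphiphysin and dynamin list none called lower.

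The genes whose log2 levels followed a member most closely over the 10 libraries were picked from the 11708 genes that averaged 1 FPKM or more. This likeness holds the difference between the groups as well as that between libraries, and the correlation of deviations from the group means is set beside it. For Cav1 they were RGD1560065 (Pearson's r 0.975, and 0.877 for deviations), Kat2b (0.959 and 0.736) and Synpo2l (0.959 and 0.748). For Cav3 they were Art3 (0.988 and 0.849), Hsph1 (0.986 and 0.806) and Smdt1 (0.985 and 0.791). For Cavin4 they were Ube2ql1 (0.956 and 0.915), Saraf (0.949 and 0.854) and Rnf144b (0.949 and 0.861). For Bin1 they were Cntf (0.971 and 0.954), Cfap300 (0.951 and 0.898) and B4galnt4 (0.945 and 0.900). Each value is the highest of many genes and is given as a description.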

How the data were processed

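Messenger RNA of 5 CON and 5 HG hearts was prepared as stranded libraries and, per the study's methods, sequenced on an Illumina HiSeq instrument. The methods also mention a pool of RNA, but each library has its own values. The authors deposited FPKM, read numbers divided by gene length and library size, with gene annotation. The submitters' processing notes list fastp, HISAT2, HTSeq, R 3.2.0 and build mRatBN7.2, with no role or order. All 10 columns were used (0 unused). The members and gene lists were chosen with earlier results of these data known.

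Reads were recovered from the steps between FPKM values. Strand use in counting is not given in the sources used here. After log2(FPKM + 0.1) transformation, genes averaging 0.1 FPKM or more were fitted in limma 3.58.1 (trend, no covariate, two-sided, Benjamini-Hochberg over all genes tested) in R 4.3.3. DESeq, which the study used, takes counts and was not run. Exact permutation tests (two-sided) were used for marker sums. Python 3.11.15, numpy 2.4.6, pandas 2.3.3 and matplotlib 3.10.9 were used, and the scripts were tested on simulated data. Upstream sequences came from RefSeq (GRCr8).

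The comparison was repeated with a pseudocount of 1 or 0.01, without the filter or with it raised to 1 FPKM, after quantile normalization or median-of-ratios scaling, without hemoglobin genes, without the trend, with the replicate number as a block, with summed Y-linked FPKM as a covariate, by voom on recovered reads, and leaving each library out. Named genes were the members, the listed genes and, for 4 members, the 3 genes of highest correlation. Neighbours of Cav1 and Cav2 were chosen after values were seen.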

Additional observations from a re-analysis of the deposited data

Results flagged for a closer look

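Within groups, 38 sets of 5 values were checked for a library far from the others, and chance marks about 1 in 20 such sets. The Mtm1 level of CON replicate 4, 23.5 FPKM, lay above the other CON libraries at 20.7 to 21.3 FPKM. The smooth muscle and pericyte marker sum of CON replicate 5, 811 FPKM, lay below the others at 902 to 931 FPKM. The liver marker sum of CON replicate 3, 76.4 FPKM, lay above the others at 3.12 to 7.88 FPKM.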

How the results depend on the processing

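Cav1, Cav2, Cav3 and Cavin4 stayed lower in HG and past the threshold in 21 of 21 alternatives, with log2 fold changes of -0.56 to -0.42, -0.68 to -0.55, -0.63 to -0.51 and -0.69 to -0.51. Cavin1, which was never called, turned negative with median-of-ratios factors (-0.0750) and quantile normalization (-0.0027), and ranged from -0.0537 to 0.0739 with 1 library left out. With median-of-ratios factors and quantile normalization, Bin1 was no longer called (0.20 and 0.20) and Dysf was called lower (-0.12 and -0.10). Mtm1 ranged from -0.19 to -0.13 with 1 library left out. The members called numbered 5 or 6 in every alternative, and the genes called over all tested 4822 to 5959. Of the marker sums, the log2 ratio of HG to CON with median-of-ratios factors was -0.0379 for endothelium and -0.29 for neuron and glia. With 1 library left out it ranged from 0.16 to 0.27 for macrophage, 0.29 to 0.46 for skeletal muscle, -0.29 to -0.15 for neuron and glia, 0.42 to 1.13 for lung epithelium and -3.87 to -1.83 for liver, and in each of these at least 1 omission moved the exact permutation p across the threshold. The causes were not tested.

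The replicate numbers did not pair the libraries, since libraries of the same number correlated at -0.13 to 0.11 in their deviations and 0 of 5 numbers matched best. With the number as a replicate block, Mtm1 was no longer called (-0.16, limma adjusted p = 0.0737), and no other call of a member changed. Depth limits Cavin4 most, at 122 to 299 reads per library.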

Other observations

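Cav1 and Cav2 lie side by side on chromosome 4, with 0 other coding genes between them in the RefSeq annotation, and their neighbours were looked at after values had been seen. Tes, the next listed gene on the Cav2 side, which encodes the focal adhesion protein testin, rose from 8.09 ± 0.561 to 12.4 ± 2.10 FPKM (SD, n = 5 each; log2 fold change 0.59, limma adjusted p = 0.000839), while both caveolin genes fell. On the Cav1 side, the receptor gene Met was at 0.340 ± 0.0652 and 0.444 ± 0.103 FPKM (0.30, limma adjusted p = 0.188), and Capza2, an actin capping protein gene, at 67.4 ± 3.52 and 67.6 ± 5.50 FPKM (0.00, limma adjusted p = 0.973).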
